A study of Mus with 30 samples.

Results

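A transcript locus can yield several transcript models, the exon structures that an assembler infers from sequencing reads. In the deposited tables, transcripts that carry no Ensembl identifier are named MERGE, a locus number and a model number. The loci described here are those with at least 2 such models listed in all 30 tables. They number 1293 of the 4363 loci with a merged model in every table, and they hold 3886 of 6956 merged models. In all, 28298 transcripts were listed in every table and 36503 in at least 1. For each mouse, the level of a locus was the sum of its models and the share of a model was its percent of that sum. The model with the highest mean level over the 30 mice is called the dominant model, and the model with the largest share in a given mouse its top model.

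Cells make several transcripts from 1 locus through alternative promoters, splicing and polyadenylation, and in heart muscle the choice between isoforms of sarcomere, channel and metabolic genes is known to shift with development and load. Isoforms of a locus often share most of their sequence, and short reads from the shared part have to be divided between them by a model. A share and a locus sum are thus separate quantities, and both are given. The files pair the MERGE identifiers neither with gene names nor with positions or sequences, so the loci are given by identifier, their products are unnamed, and the labelled tissue could not be checked against marker genes. Ensembl transcripts of the same gene are not part of the sums.

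All mice were C57BL/6, a common inbred strain, and male in the study's methods. Control mice received saline. Angiotensin II (Ang II), a peptide that constricts vessels, was infused into the AngII mice over 28 days at a rate of 500 ng/kg/min, and the other groups received the same infusion with a drug. AngII+ETH mice were given ethoxysanguinarine, AngII+BAI mice baicalin and AngII+GAS mice gastrodin, each at 5 mg/kg/d, and AngII+VAL mice the Ang II receptor blocker valsartan at 10.4 mg/kg/d. The labels used here give 5 mice in each group, whereas the study's text gives another number, and no transgene or deletion is named. The 4 drug comparisons share the same 5 AngII mice. RNA came from a part of the heart depleted of ribosomal RNA, so it mixes all cell types of the tissue, and fewer cells of a type and less RNA per cell cannot be told apart. Per mouse, all listed values added up to 562189 to 654188 FPKM. The member loci held 3.41% to 7.47% of that sum, and 2.10% to 3.17% without the most abundant locus.

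The deposited tables had been filtered, and the filter bears on every comparison. In each of the tables of Control and of the 4 drug groups, 0 transcripts had a mean under 0.5 FPKM in both that group and the AngII group. A model could thus be listed in every table on its level in AngII alone, whatever its level in the other groups, and 3767 of the 3886 models had an AngII mean of at least 0.5 FPKM. Of these, 1206 had a mean under 0.5 in some other group. The remaining 119 models were under 0.5 in AngII and at or above it in each of the 5 other groups, and so had to differ in that direction. The number of models under 0.5 FPKM was 534 in Control, 539 in AngII+ETH, 571 in AngII+BAI, 576 in AngII+GAS and 547 in AngII+VAL. A total of 2561 models reached 0.5 in all 6 groups, and in 486 loci every model did.

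Most loci were small and of low level. There were 738 loci with 2 models, 295 with 3 and 260 with 4 or more, of which 15 had at least 10 and the largest had 41. The mean locus sum had a median of 4.90 FPKM and ran from 0.542 to 15961 FPKM, and 24 loci reached 100 FPKM. Model numbers were not continuous in 1138 loci (88.0%). A further 775 merged models of 439 member loci were listed in some tables only and are outside the shares.

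The dominant model was seldom the top model in every mouse. Among the 1278 loci with a mean sum of at least 1 FPKM, its mean share had a median of 58.0%. It was 67.6% in loci with 2 models, 50.4% with 3 and 39.4% with 4 or more. Only 37 loci had a dominant model with a mean share of 90% or more, and in 415 it stayed under 50%. In 86 loci (6.73%) the same model was on top in every mouse with signal, 83 of them with signal in all 30 mice. These were 61 of 723 loci with 2 models, 15 of 295 with 3 and 10 of 260 with 4 or more. In 747 loci, 2 models were on top in some mouse, and in 445 at least 3 were. The dominant model was on top in a median of 20 of the 30 mice.

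**Figure D1:**
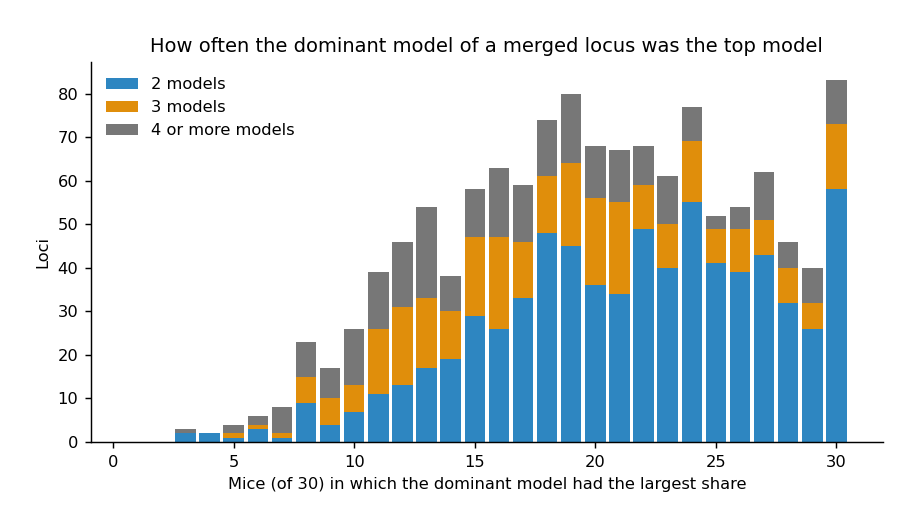
Number of loci (y axis) by the number of mice, of 30, in which the dominant model had the largest share (x axis), for the 1278 loci with a mean sum of at least 1 FPKM, with colours for the number of models. The bar at 30 mice holds 83 loci, and the median locus lies at 20 mice.

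The spread of the shares was smaller at higher locus levels. At mean sums of 1 to 5 FPKM the share of the dominant model had a median within-group SD of 28.5 percentage points, and 14 of 639 loci (2.19%) kept 1 top model. The SD was 21.4 points at 5 to 20 FPKM, where 49 of 496 loci (9.88%) kept it. At 20 FPKM or more the SD was 13.7 points, and 23 of 143 loci (16.1%) kept it. The locus sums had median within-group coefficients of variation of 46.8%, 32.8% and 22.6% in the same order.

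**Figure D2:**
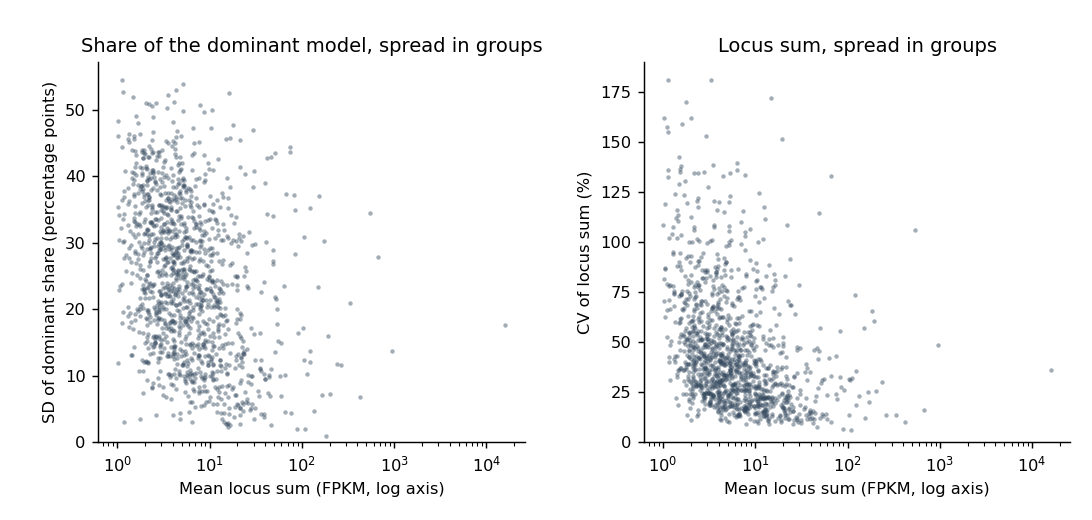
Within-group spread of each locus against its mean sum (x axis, FPKM, log scale): the SD of the dominant model's share in percentage points (left) and the coefficient of variation of the locus sum in percent (right), each the mean over the 6 groups. Points are the 1278 loci, and both spreads are lower at higher sums, with median SDs of 28.5, 21.4 and 13.7 points at 1 to 5, 5 to 20 and 20 or more FPKM.

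Models of a locus tended to trade level with each other. In 723 loci with 2 models, the within-group correlation of the models over the 30 mice had a median of -0.257 and was negative in 545 (75.4%). Both models come from the same library and share its scaling. The variance of the locus sum was smaller than the summed variances of its models in 993 of 1278 loci (77.7%), with a median ratio of 0.736. Of all models, 2232 (57.4%) were listed at 0 in at least 1 mouse and 453 in at least 15. In 274 models a value of 0 in at least 5 mice stood beside values of 5 FPKM or more in at least 5 others.

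Merged models of these loci were at 0 more often than the other transcripts of the same tables. In a mouse, 12.9% to 21.9% of the 3886 member models were at 0 (median 15.4%). The range was 9.38% to 17.4% for the 3070 merged models that are alone in their locus and 3.80% to 7.75% for the 21342 Ensembl transcripts. At mean levels of 1 to 5 FPKM, the median within-group coefficient of variation was 71.2% for member models, 48.6% for lone merged models and 40.4% for Ensembl transcripts. These are descriptions of the tables, with no test.

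Over all loci the group mean of departures from the dominant model was highest in AngII, while over the loci whose models all passed the limit in every group the AngII mice overlapped with all others. The top model was another than the dominant one in 34.1% to 35.2% of loci in the 5 AngII mice (34.6% ± 0.542, SD, n = 5). The ranges were 31% to 33.0% in Control, 30.1% to 33.1% in AngII+ETH, 29.9% to 33.7% in AngII+GAS and 30.2% to 32.1% in AngII+VAL. None of these 4 overlapped with AngII. In AngII+BAI the range was 28.8% to 35.2%, and the highest value came from mouse 5113, which also had the highest percent of models at 0 (21.9%). In the 486 loci whose models all reached 0.5 FPKM in all 6 groups, the AngII mice lay between 27.1% and 33.4% (29.6% ± 2.41, SD, n = 5) and overlapped with every other group. The means of the other groups were 29.1% in Control, 28.3% in AngII+ETH, 29.3% in AngII+BAI, 29.5% in AngII+GAS and 28.7% in AngII+VAL. The percent of all member models at 0 was 13.0% to 15.8% in AngII and 14.3% to 18.8% in Control. Models low in Control could be listed through AngII, so these values are no independent evidence of fewer zeros in AngII. Among models of the 486 loci, 5.05% to 5.82% were at 0 in AngII and 4.43% to 7.38% in Control.

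**Figure D3:**
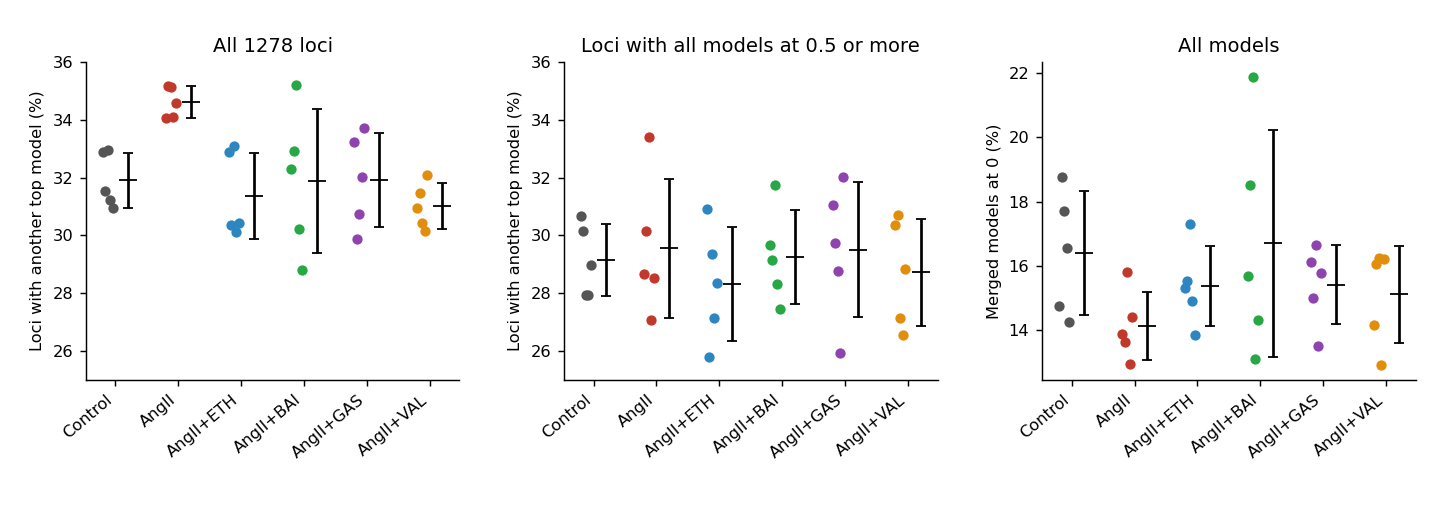
Percent of loci whose top model was not the dominant one, over all 1278 loci (left) and over the 486 loci whose models all had a mean of 0.5 FPKM or more in every group (middle), and percent of member models listed at 0 (right). Points are the 5 mice of each group and bars the mean ± SD; the AngII mice lie at 34.1% to 35.2% on the left and at 27.1% to 33.4% in the middle, and the y axes do not start at 0.

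By group means, 558 loci (43.7%) had the same top model in all 6 groups, 598 had 2 such models and 122 had 3 or more. The top model by group mean differed between AngII and Control in 373 loci. Against AngII it differed in 377 loci for AngII+ETH, 380 for AngII+BAI, 376 for AngII+GAS and 372 for AngII+VAL. These shifts of the top model were not tested as such. Of the shares tested between pairs of groups, 3 were called, all with valsartan. Among their loci, MERGE.17281 and MERGE.9770 had the same top model by group mean in all 6 groups.

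MERGE.24059 was the most abundant locus and had the most models, 41. Its sum was 15961 FPKM on average and lay between 5670 and 27468 FPKM in the 30 mice. Mean sums were 14252 ± 4774 FPKM in Control and 16231 ± 5520 FPKM in AngII (SD, n = 5), and the groups overlapped (log2 difference 0.17 ± 0.29, SE; limma adjusted p = 0.881). As many as 13 of its models were on top in some mouse. The dominant model, MERGE.24059.7, had a mean share of only 15.9% and was on top in 5 mice. Its share reached 72.2% in 1 AngII+BAI mouse and was close to 0 in several others. MERGE.24059.6 held 79.5% in an AngII mouse, 61.8% in an AngII+GAS mouse and 60.3% in a Control mouse, while its median was 1.34% in Control and 0.307% in AngII.

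**Figure D4:**
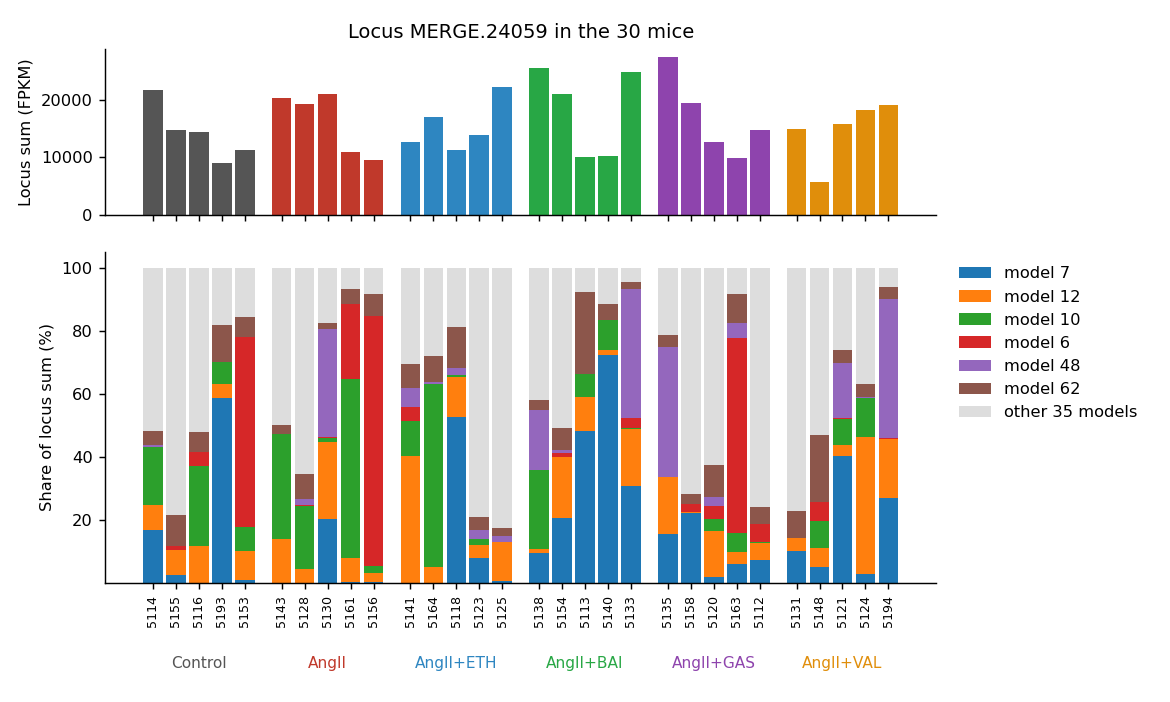
Sum of locus MERGE.24059 in FPKM (top) and the share of its 6 models with the highest mean share, in percent of the locus sum (bottom), in each of the 30 mice, grouped and coloured by treatment with mouse numbers on the x axis. Grey is the summed share of its other models; the leading model changes from mouse to mouse within every group, with 13 top models in all.

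MERGE.7082 came next, with 6 models and a mean sum of 956 FPKM. Its dominant model MERGE.7082.3 was on top in 29 of 30 mice, with a median share of 74.8% in Control and 84.2% in AngII+ETH. The exception was AngII mouse 5156, where the share was 0.473% and MERGE.7082.6 held 85%. In the other 4 AngII mice MERGE.7082.3 held 84.8%, 82.1%, 56.7% and 82.7%. The locus sum of mouse 5156, 2057 FPKM, was the highest of its group, in which the median was 719 FPKM.

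In MERGE.19419, the third locus by level, the sum had a within-group coefficient of variation of 15.8%, and the share of the dominant model a within-group SD of 27.8 points. Group means of the sum ran from 632 ± 130 FPKM in AngII+ETH to 748 ± 83.3 FPKM in AngII (SD, n = 5). The share of the dominant model MERGE.19419.4 was 40.7%, 25.3%, 22.6%, 77.7% and 96.3% in the 5 AngII mice and 47.2%, 74.3%, 86.1%, 83.4% and 62.2% in the Control mice. The groups overlapped over most of their range.

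MERGE.20384 and MERGE.6753 held a steadier mixture. In MERGE.20384, with 5 models and a mean sum of 66.0 FPKM, MERGE.20384.16 was on top in all 30 mice and held 41.8% to 62.2%. In MERGE.6753, with 7 models and a mean sum of 28.3 FPKM, MERGE.6753.9 was on top in all 30 mice at a mean share of 43.3%. The within-group SD of these dominant shares was 4.44 and 5.05 points.

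Over the 6 groups together, 0 of 3133 shares passed limma's F test at an adjusted p under 0.05 (percent called 0), and 159 (5.08%) had an unadjusted p under 0.05. The 4 models with the smallest p-values are given as values, and in each of them the AngII+ETH mean lay furthest from the AngII mean.

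MERGE.19455, a locus of 8 models with a mean sum of 24.9 FPKM, gave 2 of these. The share of MERGE.19455.8 was 50.2%, 7.08%, 66.4%, 59.9% and 64.8% in the AngII+ETH mice. In the other 25 mice it ran from 0.836% to 26.1%, so that 4 AngII+ETH mice stood above all others and mouse 5164 among them. MERGE.19455.6 had 5.48% to 9.68% in AngII+ETH against 18.9% to 24.9% in AngII, without overlap. The adjusted p over 6 groups was 0.112 for both (limma). Leaving out 1 mouse at a time or changing a setting moved it to between 0.00139 and 0.777 for MERGE.19455.8 and between 0.0371 and 0.984 for MERGE.19455.6. The locus sum was 23.0 to 34.8 FPKM in AngII+ETH and 19.7 to 28.1 FPKM in AngII.

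In MERGE.23847, with 3 models, the share of MERGE.23847.3 was 51.4%, 21.8%, 41.5%, 39.8% and 58.3% in AngII+ETH. It was 2.03% to 7.69% in 4 AngII mice and 40.7% in mouse 5156, and 37.4% and 27% in AngII+BAI mice 5113 and 5140. The remaining 3 AngII+BAI mice had 4.04% to 8.52%. High shares were thus seen in single mice of other groups too. The adjusted p over 6 groups was 0.112, between 0.00946 and 0.736 under the alternatives. The locus sum stayed between 9.86 and 11.2 FPKM in AngII+ETH and between 9.79 and 11 FPKM in AngII.

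MERGE.19411.10, the dominant model of a locus of 4, had 42.7% to 80.7% of the locus in AngII and 5.74% to 27.7% in AngII+ETH, with no overlap. Its partner MERGE.19411.6 held 28.2%, 78.7%, 61.9%, 78.2% and 75.8% in AngII+ETH against 10.5% to 46.0% in AngII. The AngII+VAL shares of MERGE.19411.10, 8.27%, 10.7%, 67.4%, 19.0% and 37.4%, spanned both. The log2 ratio to the rest of the locus differed by -2.70 ± 0.43 (SE) between AngII+ETH and AngII, with a limma adjusted p of 0.130.

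The comparison of AngII with Control asked what the infusion did to the loci. Of 3140 shares, 0 passed at an adjusted p under 0.05 (percent called 0), and 154 (4.9%) had an unadjusted p under 0.05, 65 higher and 89 lower in AngII. The median log2 ratio over all shares tested was -0.00. MERGE.13254.5 had the smallest p among the shares lower in AngII and is described with the valsartan comparison, where its share was called. The share with the smallest p among those higher in AngII was MERGE.11353.7, at 2.21%, 0%, 24.2%, 30.1% and 13.4% in AngII and at most 0.773% in Control. AngII mouse 5128, at 0%, overlapped with Control, and the adjusted p was 0.941 (limma). The model had a mean of 0.0858 FPKM in Control and 1.51 FPKM in AngII, and so met the limit for the Control table only through AngII, where it is higher.

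Locus sums gave 0 calls among 1262 member loci in AngII against Control, beside 6 of 17349 features in the whole table (0.0346%). At an unadjusted p under 0.05 there were 141 member loci (11.2%), 64 higher and 77 lower, beside 9.44% of all features. A difference of at least 1 on the log2(FPKM + 1) scale, which understates the fold change of low loci, together with an unadjusted p under 0.05 was found for 31 member loci (2.46%, against 1.54% of all), 22 higher and 9 lower. Through the filter, 1206 member models were listed on their AngII level although under 0.5 FPKM in some other group. The split in direction is thus no independent evidence of a rise, and the split over all features is not given. The median log2 difference was -0.03 over member loci and -0.00 over all features.

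MERGE.20384 had the smallest p among sums higher in AngII. Its sum was 51.0, 50.9, 51.8, 47.8 and 52.2 FPKM in Control and 65.7, 82.9, 70.9, 73.6 and 62.4 FPKM in AngII. All AngII mice lay above all Control mice, by 0.47 ± 0.09 (SE) on the log2(FPKM + 1) scale, with an adjusted p of 0.215 (limma). MERGE.22292 had the smallest p among the lower sums, at 2.67 to 6.18 FPKM in Control and 1.22 to 2.13 FPKM in AngII (log2 difference -0.93 ± 0.19, SE; limma adjusted p = 0.259). Its model MERGE.22292.5 had a mean of 0.364 FPKM in AngII and 2.24 FPKM in Control. It was 1 of the 119 models with a mean under 0.5 FPKM in AngII, and the part of the filter in this result was not tested.

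Single models gave 1 call among 2267 member models (7 of 18354 over the whole table, 0.0381%), and it was MERGE.13254.5. At an unadjusted p under 0.05 there were 216 (9.53%, against 9.13% of all transcripts). The median log2 difference of member models was -0.08, beside -0.01 over all transcripts.

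Valsartan was the comparison with called shares. Of 3138 shares, 3 passed at an adjusted p under 0.05 (percent called 0.0956), 1 higher and 2 lower in AngII+VAL than in AngII, and 149 (4.75%) had an unadjusted p under 0.05. All 3 calls had an adjusted p of 0.0451 (limma), just under the threshold. There were 0 calls without the mean-variance trend, on the fraction scale, in a fit of all 6 groups and with models listed only in the tables compared. A pseudocount of 0.1 gave 1 call. Loci whose models all reached 0.5 FPKM in every group also gave 0 calls, but the 3 called shares lie outside them and were not retested there. Leaving out a mouse gave 0 to 3 calls, and 0 without AngII mouse 5161 or 5156 or AngII+VAL mouse 5131, 5148 or 5194. Without AngII mouse 5143 or AngII+VAL mouse 5121 or 5124 there was 1 call.

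MERGE.13254.5 rose in AngII+VAL and belongs to a locus of 2 models. Its share was 96.3%, 100%, 100%, 33.2% and 100% in AngII+VAL and 0%, 0%, 0%, 0% and 0.0657% in AngII, a log2 ratio higher by 4.14 ± 0.61 (SE). In Control it was 100%, 53.1%, 74.6%, 36.5% and 100%. AngII+ETH, AngII+BAI and AngII+GAS each held 2 mice at 0% and at least 1 at 99.9% or more, so those groups spanned the whole range. The adjusted p of the share was 0.681 between AngII and Control, although these groups did not overlap.

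The sum of MERGE.13254 overlapped between these groups. It was 4.25, 4.28, 3.22, 4.03 and 4.98 FPKM in AngII, 4.66, 4.73, 5.13, 5.33 and 3.92 FPKM in AngII+VAL and 4.45 to 6.82 FPKM in Control. As a single model, MERGE.13254.5 was listed at 0 in 4 AngII mice and at 0.00327 FPKM in the other, against 1.77 to 5.13 FPKM in AngII+VAL (limma adjusted p = 0.0144) and 1.65 to 6.82 FPKM in Control (limma adjusted p = 0.0232). The partner MERGE.13254.2 made up the rest of the locus, with 99.9% or more in every AngII mouse. MERGE.13254.5 was 1 of the 119 models with a mean under 0.5 FPKM in AngII and at or above it in all 5 other groups. At such a level in AngII it could be listed only if higher in the other groups, and these calls are no independent evidence of that direction.

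MERGE.17281.2 fell in share, in a locus of 3 models. It held 36.5%, 46.8%, 16.2%, 44.1% and 38.4% in AngII and 4.51%, 5.48%, 5.69%, 6.28% and 6.80% in AngII+VAL, a log2 difference of -2.60 ± 0.37 (SE). The lowest AngII mouse lay above the highest AngII+VAL mouse. In Control 4 of 5 mice were at 4.72% to 13.5% and the other at 33.8%, and AngII+ETH, AngII+BAI and AngII+GAS each had at least 1 mouse above 40%. The locus sum was 25.8 to 28.5 FPKM in AngII and 25.6 to 35.1 FPKM in AngII+VAL. The share of the dominant model MERGE.17281.1 was 91.9% to 94.5% in AngII+VAL and 31.7% to 80.0% in AngII.

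MERGE.9770.8, a minor model in a locus of 5, also fell in share, and with an AngII+VAL mean of 0.475 FPKM it met the limit for that table only through AngII. It held 8.51%, 7.49%, 7.57%, 7.79% and 8.39% in AngII and 0.770%, 0.861%, 2.72%, 1.07% and 0.810% in AngII+VAL (log2 difference -1.70 ± 0.25, SE). The AngII mice were close together, whereas Control ran from 0.895% to 26.7%, around the AngII values. As a single model it went from 2.01 to 3.26 FPKM in AngII to 0.340 to 0.866 FPKM in AngII+VAL (limma adjusted p = 0.0275), a call that held in 4 of 15 alternatives, with adjusted p up to 0.709. In the same locus MERGE.9770.6 was under 1% in 4 AngII mice and at 12.6% to 28.4% in AngII+VAL.

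**Figure D5:**
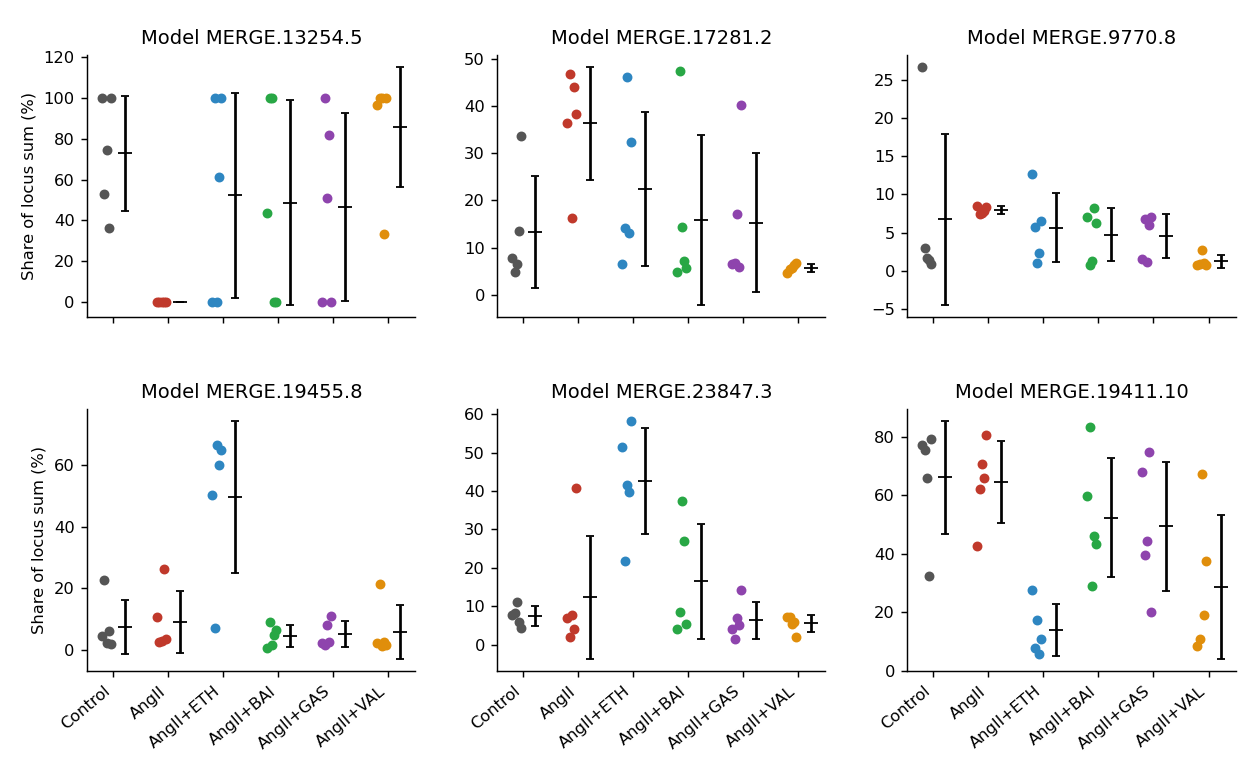
Share of the locus sum, in percent, of 6 models in the 5 mice of each group (points), with the mean ± SD beside them: the 3 models whose share was called between AngII+VAL and AngII (top row) and 3 of those with the smallest p over the 6 groups (bottom row). MERGE.13254.5 is at or near 0% in all AngII mice, and MERGE.19455.8 is above 50% in 4 of 5 AngII+ETH mice; SD bars can pass 0% or 100% although shares cannot.

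Locus sums gave 0 calls of 1255 member loci in AngII+VAL against AngII (2 of 17183 over the whole table, 0.0116%), with 96 (7.65%) at an unadjusted p under 0.05 beside 6.38% of all features. A log2(FPKM + 1) difference of at least 1 with an unadjusted p under 0.05 was found for 19 member loci (1.51%, against 1.2% of all), 4 higher and 15 lower. Models low in AngII+VAL could be listed through AngII, so this split in direction is no independent evidence of a fall. MERGE.22292 was at 3.14 to 5.23 FPKM in AngII+VAL, above all AngII mice (log2 difference 0.89 ± 0.16, SE; limma adjusted p = 0.287). These are the same AngII mice as in the comparison with Control, and its model MERGE.22292.5 was 1 of the 119 that had to be higher outside AngII. MERGE.13507 had the smallest p among the lower sums, at 0, 0.0263, 1.13, 0.0464 and 0.0817 FPKM in AngII+VAL and 1.68 to 2.29 FPKM in AngII (limma adjusted p = 0.287). Its models had means of 0.0369 and 0.220 FPKM in AngII+VAL and met the limit for that table through AngII alone. Single models gave 2 calls of 2268 (4 of 18196 over the whole table, 0.022%), namely MERGE.13254.5 and MERGE.9770.8, and 157 at an unadjusted p under 0.05 (6.92%, against 6.23% of all).

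With ethoxysanguinarine, 0 of 3142 shares passed at an adjusted p under 0.05 (percent called 0), and 165 (5.25%) had an unadjusted p under 0.05, 96 higher and 69 lower. The share with the smallest p among the higher ones was MERGE.12934.3, a dominant model at 99.7% or more in every AngII+ETH mouse and at 80.8%, 85.2%, 100%, 87.1% and 87.9% in AngII, where 1 mouse overlapped (limma adjusted p = 0.273). Its partner MERGE.12934.4 had a mean of 0.0412 FPKM in AngII+ETH and 2.56 FPKM in AngII, and met the limit for the AngII+ETH table only through AngII.

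Locus sums were called in 2 of 1258 member loci (21 of 17260 over the whole table, 0.122%). MERGE.15536, a locus of 2 models, fell. Its sum was 43.3, 42.3, 40.5, 40.3 and 44.2 FPKM in AngII and 28.5, 27.3, 25, 26.8 and 26.0 FPKM in AngII+ETH, with no overlap and little spread. The difference was -0.64 ± 0.06 (SE) on the log2(FPKM + 1) scale, with an adjusted p of 0.00559 (limma). Without any 1 mouse the adjusted p was at most 0.0253, whereas a fit of all 6 groups, with a pooled spread, gave 0.449. Control mice had 31.1 to 46.5 FPKM. All AngII+VAL mice, at 19.9 to 39.4 FPKM, and all AngII+BAI mice, at 10.4 to 37.9 FPKM, also lay under AngII, with limma adjusted p of 0.696 and 0.546.

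Within MERGE.15536, the model MERGE.15536.7 fell, from 17.9 to 20.2 FPKM in AngII to 6.97 to 8.74 FPKM in AngII+ETH (log2 difference -1.25 ± 0.09, SE; limma adjusted p = 0.000324). Its share was 44.1% to 46.8% in AngII and 26.4% to 30.6% in AngII+ETH. The complementary share of MERGE.15536.6, the one tested, did not pass (log2 difference 1.00 ± 0.27, SE; limma adjusted p = 0.723). In 2 Control mice MERGE.15536.7 was at 0. The level of MERGE.15536.6 was lower with ethoxysanguinarine too, at 22.2 to 24.0 FPKM in AngII and 17.9 to 20.1 FPKM in AngII+ETH. These ranges did not overlap, though this model was not called.

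MERGE.18710, also with 2 models, rose with ethoxysanguinarine, from 3.39, 2.02, 1.84, 1.26 and 1.72 FPKM in AngII to 5.70, 5.46, 5.95, 6.76 and 7.55 FPKM (log2 difference 1.29 ± 0.17, SE; limma adjusted p = 0.0265). Control mice had 2.65 to 10.1 FPKM. Leaving out any AngII+ETH mouse, or any AngII mouse but 5143, moved the adjusted p to between 0.0501 and 0.0872. The dominant model MERGE.18710.2 rose too, at 0.472 to 2.06 FPKM in AngII and 4.82 to 6.04 FPKM in AngII+ETH (limma adjusted p = 0.0156).

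In all, 5 of 2240 single models were called with ethoxysanguinarine (24 of 18242 over the whole table, 0.132%), 3 higher and 2 lower. Besides the models of MERGE.15536 and MERGE.18710, these were MERGE.10767.4, MERGE.10464.2 and MERGE.11353.12. MERGE.10767.4 was listed at 0 in all AngII mice and at 4.64, 2.57, 3.95, 3.48 and 2.47 FPKM in AngII+ETH (limma adjusted p = 0.000372). It too was 1 of the 119 models under 0.5 FPKM in AngII, so the call is no independent evidence of that direction. The model ran from 0 to 2.76 FPKM in Control, 0 to 4.30 in AngII+BAI, 0 to 10.7 in AngII+GAS and 0 to 3.34 in AngII+VAL. Its call held in 14 of 15 alternatives, with adjusted p up to 0.316. MERGE.10464.2 was at 0.445, 1.2, 0, 0.512 and 0.814 FPKM in AngII and 2.66 to 3.09 FPKM in AngII+ETH (limma adjusted p = 0.0424), a call that held in 4 of 15 alternatives, with adjusted p up to 0.411. MERGE.11353.12 fell from 2.55 to 4.25 FPKM in AngII to 0.332 to 1.04 FPKM (limma adjusted p = 0.0122). Its share was 12.7% to 100% in AngII and 1.60% to 8.81% in AngII+ETH, and this share did not pass (limma adjusted p = 0.625).

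At an unadjusted p under 0.05, 133 member locus sums differed with ethoxysanguinarine (10.6%, against 8.46% of all features), 84 higher and 49 lower. With a log2(FPKM + 1) difference of at least 1 besides, there were 33 (2.62%, against 1.69%), 11 higher and 22 lower. Since models low in AngII+ETH could be listed through AngII, this split in direction is no independent evidence of a fall. Of single models, 210 (9.38%, against 8.29%) had an unadjusted p under 0.05.

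With gastrodin, 0 of 3140 shares passed at an adjusted p under 0.05 (percent called 0), and 150 (4.78%) had an unadjusted p under 0.05. MERGE.12331.5, from a locus of 11 models, had the smallest p among the higher shares, at 2.85% to 24.1% in AngII+GAS and at most 1.81% in AngII (limma adjusted p = 0.858). This locus had 9 different top models over the mice. With a mean of 0.385 FPKM in AngII and 6.41 FPKM in AngII+GAS, MERGE.12331.5 was 1 of the 119 models that had to be higher outside AngII. MERGE.15558.7 had the smallest p among the lower shares, at 8.33% in 1 AngII+GAS mouse and at most 0.0179% in the others, against 0% to 13.7% in AngII (limma adjusted p = 0.858). Its mean was 0.238 FPKM in AngII+GAS and 0.827 FPKM in AngII, so it met the limit for the AngII+GAS table only through AngII, where it is higher.

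A single member locus sum of 1255 was called with gastrodin (5 of 17164 over the whole table, 0.0291%), and it was lower. MERGE.13507 was at 2.06, 1.71, 2.15, 2.29 and 1.68 FPKM in AngII and at 0.331, 0.0156, 0, 0 and 0 FPKM in AngII+GAS (log2 difference -1.48 ± 0.13, SE; limma adjusted p = 0.00348). Control mice were also low, at 0.0278, 0.110, 0, 1.64 and 0.0325 FPKM, as were 4 of 5 AngII+VAL mice. AngII+ETH held mice at 3.42 and 1.48 FPKM beside 3 at 0. The mean over all mice, 0.877 FPKM, puts it among the 15 loci under 1 FPKM. Its models MERGE.13507.1 and MERGE.13507.5 had means of 0.0693 and 0 FPKM in AngII+GAS and of 0.780 and 1.2 FPKM in AngII. They met the limit of 0.5 FPKM for the AngII+GAS table through AngII alone. At such levels in AngII+GAS they could be listed only if higher in AngII, and the call is no independent evidence of that direction. The adjusted p was 0.140 with a pseudocount of 0.1 and 0.427 in a fit of all 6 groups.

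Single models gave 0 calls of 2246 with gastrodin by limma (4 of 18155 over the whole table, 0.022%), and 153 (6.81%, against 6.21% of all) had an unadjusted p under 0.05. At that threshold 96 locus sums differed (7.65%, against 6.41% of all features). With a log2(FPKM + 1) difference of at least 1 besides, there were 28 (2.23%, against 1.14%), 8 higher and 20 lower. Because models low in AngII+GAS could be listed through AngII, this split in direction is no independent evidence of a fall. MERGE.22292 had the smallest p among the higher sums, at 2.90 to 3.78 FPKM in AngII+GAS, above all AngII mice (limma adjusted p = 0.440). Again the AngII mice are those of the other comparisons, and its model MERGE.22292.5 was 1 of the 119 that had to be higher outside AngII.

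With baicalin, 0 shares of 3137 (percent called 0), 0 locus sums of 1244 (3 of 17151 over the whole table, 0.0175%) and 0 single models of 2233 (3 of 18140 over the whole table, 0.0165%) passed limma's test at an adjusted p under 0.05. At an unadjusted p under 0.05 there were 133 shares (4.24%), 125 locus sums (10.05%, against 10.1% of all features) and 197 single models (8.82%, against 9.75%). With a log2(FPKM + 1) difference of at least 1 besides, there were 24 locus sums (1.93%, against 1.53%), 8 higher and 16 lower. The filter limit holds for this split too, as models low in AngII+BAI could be listed through AngII. MERGE.17052 had the smallest p among the lower sums, at 22.5, 30.7, 22.6, 27.3 and 32.4 FPKM in AngII and 17.9, 14.3, 11.5, 17 and 13.7 FPKM in AngII+BAI, without overlap (log2 difference -0.82 ± 0.15, SE; limma adjusted p = 0.206). Its dominant model MERGE.17052.19 held 81.2% to 88.3% of the locus in AngII+BAI and 84.5% to 92.1% in AngII. MERGE.19411 was at 8.72 to 10.3 FPKM in AngII+BAI, above the 5.05 to 6.98 FPKM of AngII (limma adjusted p = 0.232). Among shares, MERGE.21200.11 was at 0% in all 5 AngII+BAI mice and at 0%, 26.8%, 24.2%, 24.4% and 16.6% in AngII (limma adjusted p = 0.988). Listed at 0 throughout AngII+BAI and at a mean of 1.56 FPKM in AngII, it met the limit for the AngII+BAI table only through AngII. MERGE.23852.13 was at 5.94%, 5.16%, 34.3%, 27% and 26.0% in AngII+BAI against 0.550% to 14.3% in AngII, and the groups overlapped (limma adjusted p = 0.988).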

How the data were processed

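RNA sequencing of cardiac tissue from 30 mice was analysed, 5 in each of 6 groups taken from the labels. The authors deposited for each mouse a list of transcripts with 1 value each, whose unit is not stated and which was taken to be FPKM (fragments per kilobase of transcript, scaled to library size), filtered, as the values show, at a mean of 0.5 in the group or in AngII. Build mm10 and limma stand in the submitters' processing notes, and DESeq in the study's methods; the aligner, assembler, quantifier and annotation are not given in the sources used here. Counts and depth are unknown, so precision rests on the spread between mice.

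Merged models were grouped into loci by identifier. The members and lists were chosen with earlier results of these data known. Shares were tested as log2((model + 1)/(rest of locus + 1)) for loci with a mean sum of at least 1 FPKM (of 2-model loci, the dominant model only), and locus sums and single models as log2(FPKM + 1) within the whole table, at 1 or more in at least 5 libraries. All tests used limma 3.58.1 in R 4.3.3, with a mean-variance trend, two-sided, on the libraries compared, with Benjamini-Hochberg adjustment over all features tested. Code was tested on simulated data. Named items were the loci of highest sum or with most models, those of highest sum with a shifting or a steady dominant model, and the shares and sums of smallest p or, where called, largest change; single models were named after their values were seen. Alternatives were the pseudocount, filters, trend, fraction scale, a 6-group fit, quantile normalization and each mouse left out. Python 3.11.15 and matplotlib 3.10.9 drew the figures.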

Additional observations from a re-analysis of the deposited data

Results flagged for a closer look

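In 6 of 56 groups of 5 mice checked, 1 mouse lay far from the other 4 by Dixon's criterion. Chance meets it in about 1 group in 20 where values are normally distributed. Several flagged groups lie at or near 0 or 100%, and many items checked were picked for a small p, so that rate does not apply here. The share of MERGE.13254.5 in AngII mouse 5156 was 0.0657%, with the other 4 at 0%. In AngII+VAL mouse 5124 it was 33.2%, with the others at 96.3% to 100%, and without that mouse the adjusted p of this share was 0.00014 (limma). MERGE.13254.5 was 1 of the 119 models that had to be higher outside AngII, so this p-value is no independent evidence of that direction. The share of MERGE.9770.8 was 2.72% in AngII+VAL mouse 5121, above the 0.770% to 1.07% of the others. The share of MERGE.15558.7 was 8.33% in AngII+GAS mouse 5158, with the others at 0% to 0.0179%. The sum of MERGE.13507 was 0.331 FPKM in AngII+GAS mouse 5135, with the others at 0 to 0.0156 FPKM. In AngII+VAL mouse 5121 it was 1.13 FPKM, with the others at 0 to 0.0817 FPKM.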

How the results depend on the processing

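Of 599 values of 33 named results under the alternatives, 500 were unchanged, 88 lost the call, 11 gained it and 0 turned in direction. Unchanged meant the same direction and side of the threshold, and for the F test, which has no direction, the side alone. Only results called in the main fit could lose a call, and uncalled results that stayed uncalled count as unchanged. The call of the MERGE.17281.2 share held in 3 of 17 alternatives, and that of the MERGE.15536 sum in 15 of 16. The 3 valsartan shares became 1 with a pseudocount of 0.1. They became 0 without the trend, on the fraction scale, in a fit of all 6 groups and, chosen after seeing the data, with models listed only in the tables compared. A limit to loci whose models all reached 0.5 FPKM in every group, also chosen after seeing the data, gave 0 calls too. The 3 shares lie outside those loci, so they were not retested there. Under that limit 49 of 486 loci had 1 top model, against 86 of the 1278 loci with a mean sum of at least 1 FPKM. On the fraction scale there was 1 share over the 6 groups and 1 with ethoxysanguinarine. A fit of all 6 groups gave 6 locus sums for AngII against Control, 0 with ethoxysanguinarine, 2 with baicalin and 0 with gastrodin, and 2, 2, 1 and 0 single models for Control, ethoxysanguinarine, baicalin and valsartan. A mean of at least 5 FPKM left 1 locus sum and 1 single model with ethoxysanguinarine. It left 0 single models against Control and with valsartan, and 0 locus sums with gastrodin. The called items missing there had means under 5 FPKM in the mice compared, so they were not retested. A pseudocount of 0.1 gave 0 locus sums with gastrodin and 1 single model with valsartan. Other causes were not tested.

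With 1 mouse left out, calls ranged as follows. Shares gave 0 to 1 over the 6 groups, for AngII against Control and with ethoxysanguinarine, 0 to 2 with baicalin, and 0 to 3 with gastrodin and with valsartan. Locus sums gave 0 to 3 for AngII against Control, 1 to 2 with ethoxysanguinarine and gastrodin, and 0 to 1 with baicalin and valsartan. Single models gave 2 to 8 with ethoxysanguinarine and 0 to 3 in each other comparison. Loci with 1 top model numbered 86 to 92. The single-model call of MERGE.13254.5 between AngII and Control was lost without Control mouse 5155 or AngII mouse 5128, 5130, 5161 or 5156. No paired analysis was possible because nothing in the labels pairs mice across groups. Depth is unknown, and the p-values weigh differences of group means against the spread between 5 mice a group, as moderated by limma.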
